A study of Mus musculus with 16 samples.

Results

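Accessible chromatin was described at 6 mouse genes of the hematopoietic stem cell program, Meis1, Pbx3, Mecom, Prdm16, Hlf and Hmga2. Members were taken as every merged ATAC-seq region that overlapped the body of any of the 6 genes or the 50 kb on either side. This gave 434 of the 296215 regions of the series, and 6 of 21938 protein-coding genes. ATAC-seq inserts adapters into open DNA with a transposase, and its peaks mark accessible sites. Hematopoietic stem and progenitor cells (HSPCs) were sorted from bone marrow, and each library pooled cells of 2 mice. All mice were C57BL/6, of both sexes and age-matched, and carried floxed Ep300 alleles. WT had Ep300 fl/fl without Cre, P300KO had Mx1-Cre with Ep300 fl/fl, TET2KO had Ep300 fl/fl with Tet2-/-, and P300KO_TET2KO had Mx1-Cre with both. All groups received poly(I:C), which induces Mx1-Cre, so TET2KO lacks Tet2 from the germline in every cell whereas p300 loss was induced, and the Cre transgene is present only where p300 was deleted and cannot be told apart from it. Each genotype had 4 libraries. The labels name a merged peak file for replicates 1 and 2 and none for replicates 3 and 4, and these pairs are referred to as deposit set 1 and deposit set 2, with 2 libraries of each genotype in each.

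Meis1 is a TALE homeodomain factor that binds DNA with Hox proteins, and Pbx3 is a TALE partner of the same complexes. Mecom encodes a zinc finger factor made in a long form with a PR domain and a short form, Evi1, from a start far downstream, and Prdm16 is its closest relative. Hlf is a bZIP factor of the PAR family that marks stem cells, and Hmga2 is an AT-hook protein of chromatin whose level is kept low by let-7 microRNAs. All 6 are expressed in stem or early progenitor cells, and several are kept on in acute myeloid leukemia. p300 acetylates histones at enhancers and promoters, and Tet2 oxidizes methylated cytosine.

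Several accessible sites recur through the results. Their reference sequence (GRCm38, the mm10 build, from RefSeq, plus strand, 5′ to 3′) is given for 100 bases to either side of the median summit. Capitals mark matches on either strand to short strings known to be bound by hematopoietic factors. Ets factors were represented by the string AGGAAGT, those of the Gata family by AGATAA together with the form TGATAA, Tal1 by the E-box string CAGATG, Runx factors by TGTGGT, and Meis proteins by TGACAG. The combined Hox-Pbx string was TGATTNAT, Myb was searched by CAACTG together with the form CAACGG, and Ap1 by the palindrome TGANTCA. Cebp or PAR bZIP factors were searched by TTGCNNAA, by the palindrome TTACGTAA and by the related form TTACATAA, and Irf factors by GAAANNGAA. The leading intronic sites of Meis1 (chr11:18970035-18970235 and chr11:18924994-18925194) and Prdm16 (chr4:154541716-154541916) are shown because they ranked highest inside these genes.
Meis1_44: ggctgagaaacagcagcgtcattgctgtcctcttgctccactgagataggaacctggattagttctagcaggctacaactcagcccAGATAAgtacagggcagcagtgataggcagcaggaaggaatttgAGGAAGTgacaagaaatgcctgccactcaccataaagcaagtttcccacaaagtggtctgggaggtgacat
Meis1_26: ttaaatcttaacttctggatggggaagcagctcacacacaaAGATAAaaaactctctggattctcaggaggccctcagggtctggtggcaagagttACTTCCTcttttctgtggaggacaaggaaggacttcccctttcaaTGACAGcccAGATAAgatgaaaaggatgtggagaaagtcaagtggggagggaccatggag
Prdm16_102: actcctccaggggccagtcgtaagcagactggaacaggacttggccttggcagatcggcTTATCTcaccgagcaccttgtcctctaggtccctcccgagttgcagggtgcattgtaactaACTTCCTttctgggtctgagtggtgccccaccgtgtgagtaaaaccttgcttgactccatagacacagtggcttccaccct

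Each of these 3 windows held an Ets and a Gata string. So did the leading intronic window of Pbx3 (Pbx3_23), which is not shown. The leading intronic windows of Mecom (Mecom_79), Hlf (Hlf_27) and Hmga2 (Hmga2_10), also not shown, held none of the strings. The intronic sites of Mecom (chr3:30330562-30330762) and Hmga2 (chr10:120422124-120422324) are shown because they were the 2 of the 18 named intronic windows that held the Hox-Pbx string, which 2.26% of background windows held. In the Hmga2 window the Hox-Pbx and Ap1 matches share their letters.
Mecom_41: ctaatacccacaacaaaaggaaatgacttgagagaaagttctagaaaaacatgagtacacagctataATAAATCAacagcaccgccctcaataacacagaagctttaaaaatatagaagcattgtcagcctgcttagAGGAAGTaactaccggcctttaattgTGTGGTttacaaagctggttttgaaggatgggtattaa
Hmga2_26: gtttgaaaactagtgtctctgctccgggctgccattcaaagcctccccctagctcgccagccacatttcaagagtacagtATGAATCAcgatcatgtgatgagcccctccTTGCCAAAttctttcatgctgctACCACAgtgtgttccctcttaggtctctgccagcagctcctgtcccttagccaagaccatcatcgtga

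Windows from the promoters of Hmga2 (chr10:120476726-120476926, upstream of the gene's annotated start), Mecom (chr3:30508408-30508608) and Pbx3 (chr2:34372718-34372918) are shown because the largest rank differences relative to their error lay there. The Hlf window (chr11:90347897-90348097) is the site that fell from 4 of 4 to 0 of 4 libraries. None of the 10 string sets matched in the Pbx3 or Hlf window.
Hmga2_40: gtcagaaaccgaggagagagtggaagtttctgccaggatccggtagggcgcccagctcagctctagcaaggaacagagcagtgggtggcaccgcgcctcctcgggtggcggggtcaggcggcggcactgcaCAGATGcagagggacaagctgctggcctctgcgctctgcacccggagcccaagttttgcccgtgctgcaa
Mecom_77: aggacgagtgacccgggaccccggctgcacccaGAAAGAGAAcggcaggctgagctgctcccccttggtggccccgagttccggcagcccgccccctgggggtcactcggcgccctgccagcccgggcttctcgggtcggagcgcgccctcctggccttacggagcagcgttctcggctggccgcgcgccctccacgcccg
Pbx3_25: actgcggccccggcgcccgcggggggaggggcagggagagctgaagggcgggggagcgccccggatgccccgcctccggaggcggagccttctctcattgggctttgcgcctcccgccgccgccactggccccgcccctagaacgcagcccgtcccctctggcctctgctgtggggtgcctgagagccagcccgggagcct
Hlf_18: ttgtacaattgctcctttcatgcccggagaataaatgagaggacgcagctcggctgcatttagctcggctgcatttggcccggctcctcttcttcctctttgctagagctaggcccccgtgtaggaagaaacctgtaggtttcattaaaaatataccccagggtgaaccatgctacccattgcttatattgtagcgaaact

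The lists of the 2 deposit sets differed in length. Set 1 lists held between 86039 and 110055 peaks and set 2 lists between 130610 and 137335. Peaks whose −log10 q reached 2 made up from 45.0 to 93.4% of a list in set 1, lowest in WT replicates 1 and 2 (45.0 and 63.2%), and from 92.2 to 97.4% in set 2. Reads were not used here, so depth per library is unknown. The label HSPC was set against promoter peaks of markers: Kit, Flt3, Cd34 and Gata2 of HSPCs had a peak in all 16 libraries, with mean percentiles from 91.5 to 97.5, and Ly6a in 15 (50.4). Ms4a1 of B cells, Ly6g of granulocytes and Ncr1 of NK cells had none in any library, whereas Itgam of myeloid cells (78.3) and the erythroid genes Epb42 (54.9) and Hbb-bt (43.7) had a peak in all 16. Neither deletion can be checked from a peak list.

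At the 6 loci, 52 of 434 regions (12.0%) had a peak in all 16 libraries and 183 (42.2%) in a single library, against 13.3 and 45.6% of regions genome-wide. Regions of the genes' own promoters, within 3 kb of a start, were found in all 16 more often (13 of 40) than regions of their own introns (19 of 263). Promoter and intronic regions were not counted apart genome-wide, so whether this contrast is particular to the 6 loci is not known. In WT 54 regions (12.4%) had a peak in 4 of 4 libraries, against 82 (18.9%) for P300KO, 91 (21.0%) for TET2KO and 102 (23.5%) for P300KO_TET2KO. Genome-wide the same shares were 15.0, 19.3, 21.2 and 25.4%, so the order of the genotypes was that of all regions. By deposit set, 59 to 106 of the regions were in 2 of 2 libraries of a genotype in set 1 and 149 to 165 in set 2. Own intronic regions with a peak numbered 84.2 ± 20.8 for WT, 85.0 ± 24.7 for P300KO, 89.8 ± 25.2 for TET2KO and 89.5 ± 21.5 for P300KO_TET2KO (SD, n = 4 each). These spreads take in both deposit sets (58 to 75 regions in set 1, 101 to 113 in set 2), so their overlap does not compare the genotypes. Within set 1 the genotypes overlapped. In set 2 TET2KO (112 and 111) lay above P300KO (106 and 106), and P300KO above WT, without overlap. P300KO_TET2KO (113 and 102) overlapped the other genotypes there. These differences were not tested. The outermost region inside a window had a mean percentile between 0.3 and 72.9 and its neighbor outside between 0.224 and 64.8.

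**Figure D1:**
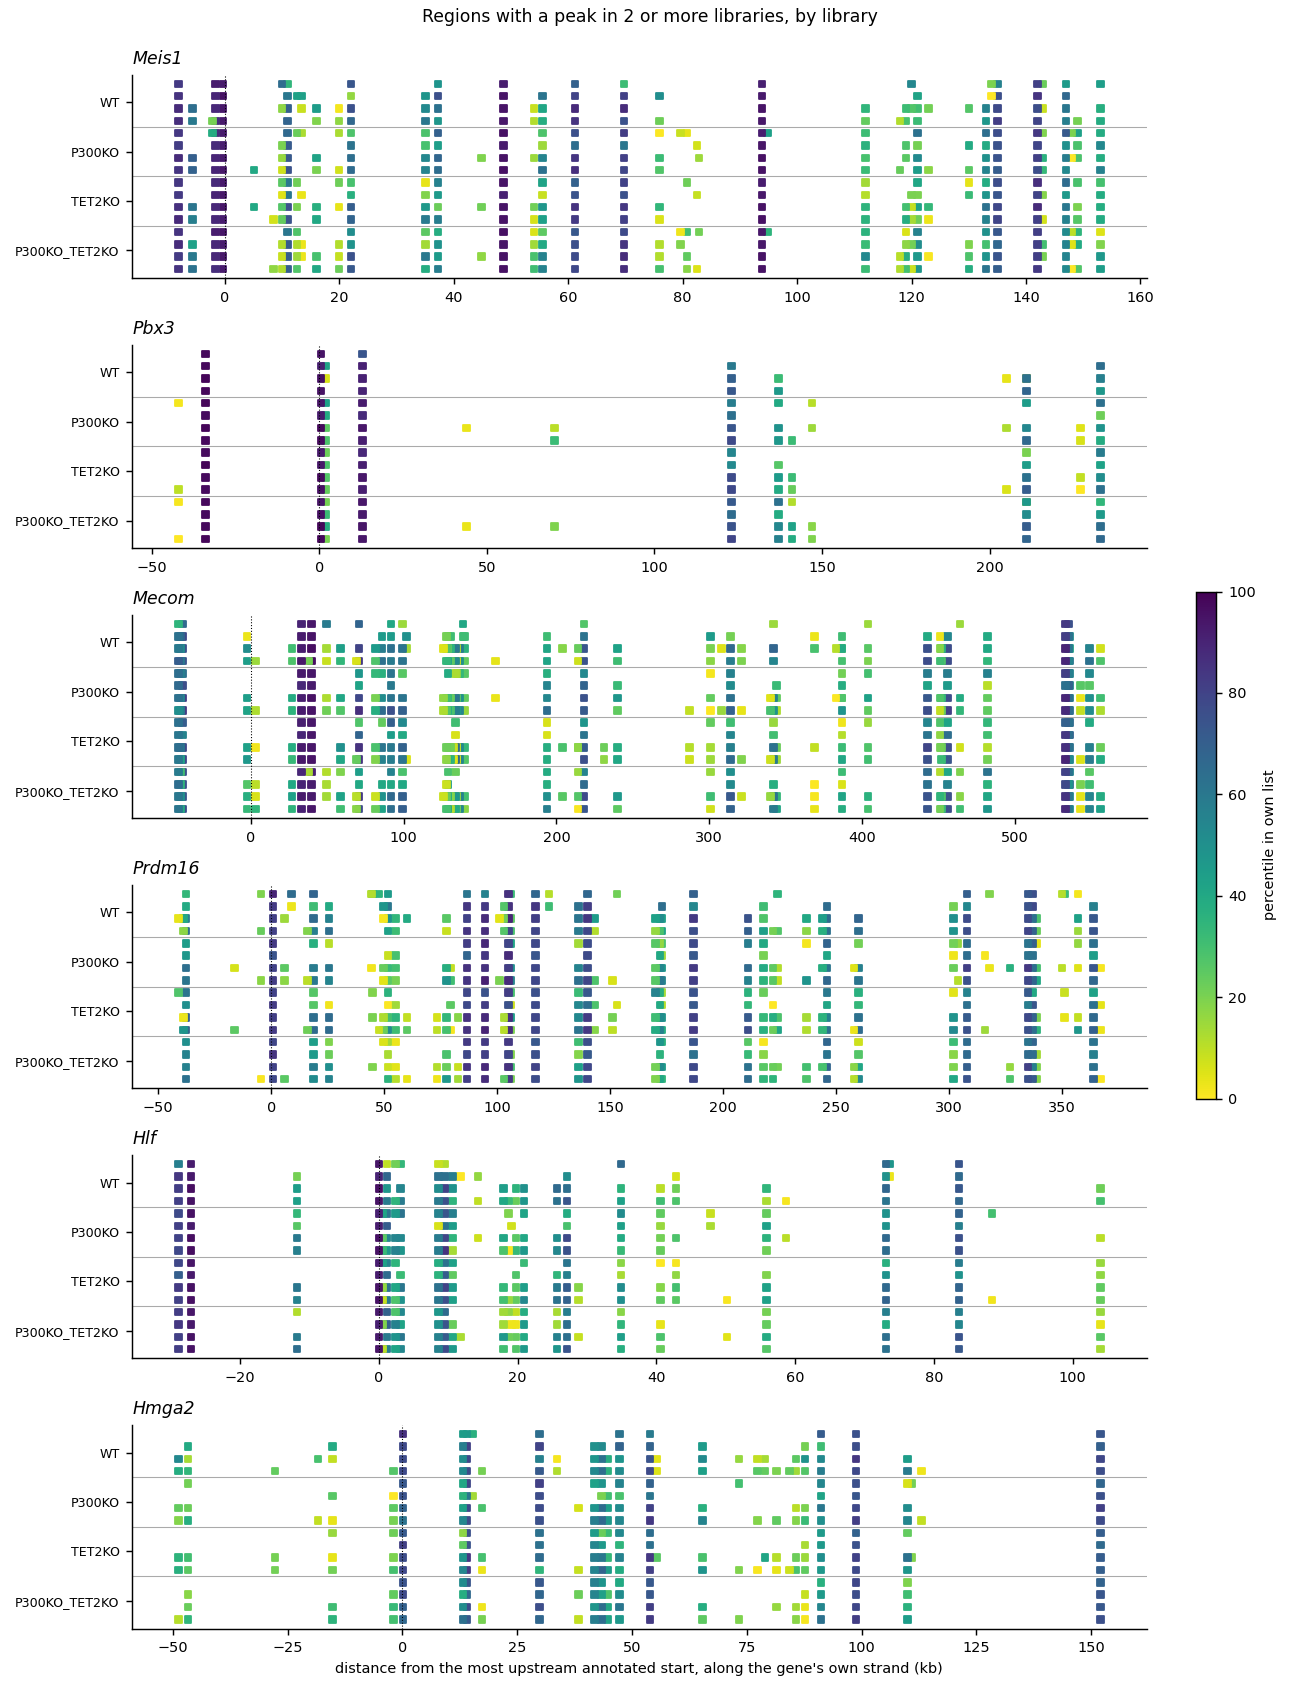
Regions with a peak in 2 or more libraries, drawn by their distance in kb from the most upstream start of each gene, with 4 rows of libraries per genotype (replicates 1 to 4 from top) and color for the percentile of the peak in its own list. Columns that run through all 16 rows are the 52 shared regions, for example 13 at Meis1 and 3 at Pbx3.

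Region strength is given as a percentile, the place of a peak's −log10 p among all peaks of its own list, from near 0 for the weakest to 100 for the strongest, and 0 where no peak was called. It compares sites within a list and is not a signal level. The place of a site in pooled cells cannot tell a lower accessibility in every cell from loss in part of the cells. Taking the strongest own promoter region of each protein-coding gene, the median was 85.8, and 16.2% of genes had none. Pbx3 (95.3, above 74.4% of genes), Mecom (94.2, above 69.7%), Hlf (93.6, above 67.7%) and Meis1 (93.2, above 66.0%) lay in the upper part of that order, and Prdm16 (83.8, above 47.9%) and Hmga2 (74.5, above 41.3%) below the median. A gene with more annotated starts has more regions to take the strongest from. Mecom has 16 start sites, Pbx3 9, Meis1 and Prdm16 7 each, Hlf 6 and Hmga2 2, and the part of this in the order was not tested. By regions per 100 kb, Hlf (14.1, above 85.4% of genes) and Meis1 (12.3, above 77.0%) were dense, and Pbx3 (3.27, above 24.2%) and Mecom (5.36, above 35.3%) sparse, where the median gene had 7.75.

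**Figure D2:**
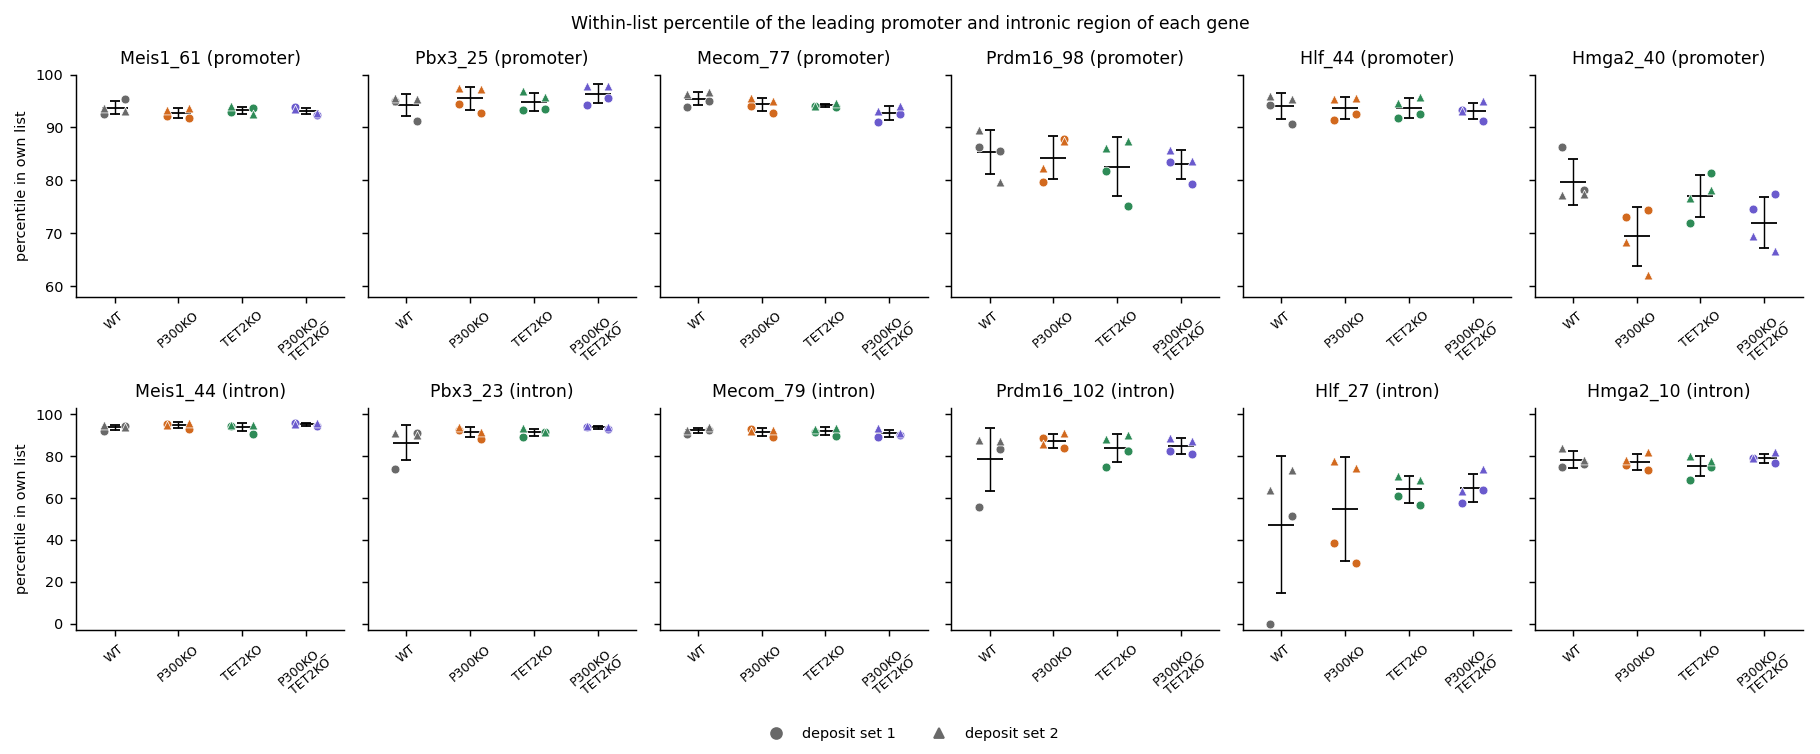
Percentile of the leading promoter region (top, axis from 58) and leading intronic region (bottom) of each gene in its own peak list, where points are libraries, circles deposit set 1, triangles deposit set 2, and bars the mean ± SD of 4 libraries. The leading promoters stayed above 90 for Meis1, Pbx3, Mecom and Hlf in all libraries, and Hmga2_40 ran from 62.0 to 86.2.

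Meis1 (chr11:18879817-19018985, minus strand) had 66 regions, 13 of them in all 16 libraries. Its promoter region Meis1_61 (chr11:19018369-19020117, at the start of a coding transcript and over a UTR) ranked at 93.2 ± 0.873 (SD, n = 16), between 91.8 and 95.4, with a second promoter region, Meis1_62, at 89.1 next to it. The intronic Meis1_44 (chr11:18969715-18970845), 48.7 kb into the gene, was the strongest region of the whole window in 9 of 16 libraries, and of the introns in 11. It stood at 92.0, 94.6, 94.8 and 93.7 in WT replicates 1 to 4, 95.5, 92.8, 95.1 and 96.0 in P300KO, 94.6, 90.8, 94.9 and 95.0 in TET2KO, and 95.8, 94.3, 95.3 and 95.6 in P300KO_TET2KO. Over both sets together, the 4 groups overlapped. Meis1_26 (chr11:18924462-18925748), 93.9 kb into the gene, ranked at 94.0 ± 1.34 (n = 16) and Meis1_39 (chr11:18956974-18958507) at 78.1 ± 6.94. Meis1_44 had a higher mean than the promoter in set 1 (93.8 against 93.1) and set 2 (95.1 against 93.3), and Meis1_26 in set 2 alone (95.0, against 93.0 in set 1).

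The number of Meis1 regions with a peak was 22, 23, 30 and 28 in WT replicates 1 to 4 and 30, 26, 32 and 31 in P300KO. It was 26, 25, 33 and 31 in TET2KO and 31, 33, 36 and 35 in P300KO_TET2KO. In each deposit set the WT libraries were lowest and the P300KO_TET2KO libraries highest, without overlap with any other genotype in that set. The share of all gene windows with this order was not counted. Libraries without p300 held 31.8 ± 3.11 regions and those with p300 27.2 ± 3.92 (SD, n = 8 each), and the mean difference within set and Tet2 background was 4.5 regions, higher in 4 of 4 such strata. A two-sided exact permutation of the p300 labels within set and Tet2 background gave p = 0.00154, the smallest that the arrangements allow. For Tet2 the difference was 3.5 regions (31.2 ± 3.96 against 27.8 ± 3.73), again higher in 4 of 4 strata (exact permutation p = 0.00154). Adjusted over 21938 protein-coding genes, the exact permutation p was 0.713 for p300 and 0.798 for Tet2, so neither passed. An adjusted p under 0.05 would need 678 genes at the smallest p, and 33 genes (17 of them higher) were there for p300 and 17 (9 higher) for Tet2. In set 1 the WT lists held 98544 and 110055 peaks, those of P300KO 100395 and 86039, those of TET2KO 91908 and 93922, and those of P300KO_TET2KO 96986 and 98478. Peaks whose −log10 q reached 2 were the smallest part of the list in the WT libraries of set 1 (45.0 and 63.2%), and the part of list length or of weak peaks in the Meis1 counts was not tested. With that minimum the p300 difference was 5.5 regions (exact permutation p = 0.00926) and the Tet2 difference 4.75 (exact permutation p = 0.0185). Counting the strongest 50000 peaks of each list, the p300 difference was 1.38 regions (exact permutation p = 0.0139) and that for Tet2 turned to −0.875 (exact permutation p = 0.0833).

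**Figure D3:**
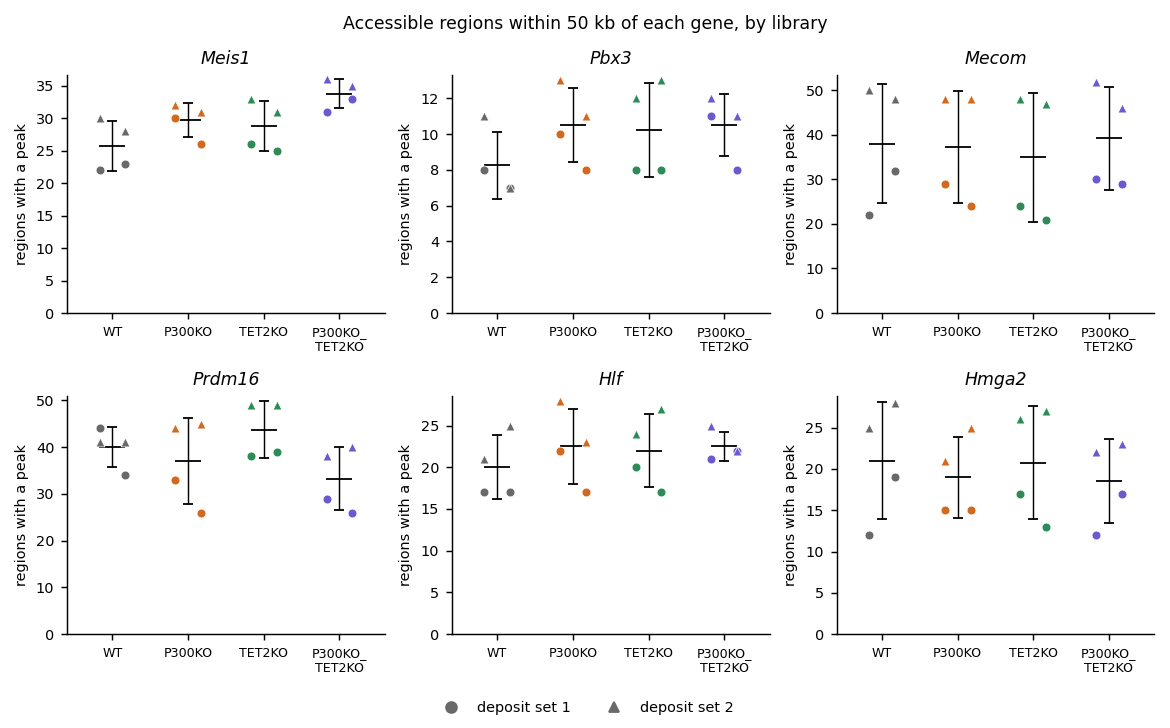
Number of accessible regions with a peak within 50 kb of each gene in every library (vertical axes from 0), where circles are deposit set 1, triangles deposit set 2, and bars the mean ± SD of 4 libraries of a genotype. At Meis1 the P300KO_TET2KO libraries (31 to 36) lay above the WT libraries (22 to 30), and at Mecom the sets were further apart than the genotypes.

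Over all genes, 0 had an adjusted exact permutation p under 0.05 for p300 (0.0%) or Tet2 (0.0%), and 1352 (6.16%) and 1193 (5.44%) an unadjusted p under 0.05. Of the 6 loci, 2 had such a p for p300 and 1 for Tet2. The second locus for p300 was Prdm16, with 35.1 ± 7.72 regions without p300 and 41.9 ± 5.25 with it (SD, n = 8 each), a difference of −6.75 (exact permutation p = 0.017, adjusted p = 0.722). Prdm16 counted 44, 34, 41 and 41 regions in WT, 33, 26, 44 and 45 in P300KO, 38, 39, 49 and 49 in TET2KO, and 29, 26, 38 and 40 in P300KO_TET2KO. Its strata ran from −11.0 to 3.5 regions, lower in 3 of 4. With a −log10 q of at least 2 the Prdm16 difference was −0.75 (exact permutation p = 0.685). For Pbx3, Mecom, Hlf and Hmga2 the p300 differences were 1.25, 1.75, 1.5 and −2.12 regions (exact permutation p between 0.134 and 0.347). Their Tet2 differences were 1.0, −0.5, 1.0 and −0.375 regions (exact permutation p between 0.31 and 0.847). Mecom counted 26.4 ± 4.1 regions in set 1 and 48.4 ± 1.85 in set 2 (SD, n = 8 each), the widest gap between the sets among the 6 loci.

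Pbx3 (chr2:34171457-34373142, minus strand) had the fewest regions, 29, of which 3 were in all 16 libraries. The strongest of them in 15 of 16 libraries, Pbx3_27 (percentile 97.9), lies at a start of the neighboring gene Mapkap1 rather than of Pbx3. The Pbx3 promoter region Pbx3_25 (chr2:34371660-34373446, at an annotated start and over a UTR) ranked at 94.9, 91.2, 95.6 and 95.3 in WT, 94.5, 92.8, 97.4 and 97.2 in P300KO, 93.3, 93.5, 96.9 and 95.7 in TET2KO, and 94.3, 95.6, 97.9 and 97.8 in P300KO_TET2KO. Set 2 libraries without p300 were all above those with p300, and set 1 libraries overlapped. Its p300 difference was 1.40 ± 0.463 points (SE, limma adjusted p = 0.193). In set 2 alone, where limma called 6.57% of all shared regions for p300, it was 1.69 points with a limma adjusted p of 0.0036, and in set 1 alone 1.11 points (adjusted p = 0.81). The intronic Pbx3_23 (chr2:34359522-34360893), 12.9 kb into the gene, was the strongest Pbx3 intronic region in 16 of 16 libraries, at 90.8 ± 4.86 (n = 16), with the lowest value, 73.8, in WT replicate 1. Pbx3_20 (chr2:34249276-34250373) and Pbx3_19 (chr2:34235414-34235984), 123.0 and 137.0 kb into the gene, were in 15 and 12 libraries, at 64.2 ± 19.2 and 33.6 ± 21.9 (n = 16, absent peaks counted as 0), and the libraries without a peak were all of set 1.

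Mecom (chr3:29951296-30548008, minus strand), the longest of the 6 genes, had 91 regions and 8 in all 16 libraries. Its strongest promoter region, Mecom_77 (chr3:30506910-30509501), lies 39.8 kb inside the gene at the start of a noncoding transcript and overlaps a UTR. It was the strongest region of the window in 15 of 16 libraries. The values were 93.9, 94.9, 96.3 and 96.7 in WT, 94.1, 92.8, 95.6 and 94.9 in P300KO, 94.1, 93.8, 94.1 and 94.6 in TET2KO, and 91.1, 92.5, 93.1 and 94.1 in P300KO_TET2KO. In each set both P300KO_TET2KO libraries were below both WT libraries. The Tet2 difference was −1.47 ± 0.405 points (SE, limma adjusted p = 0.174) and the p300 difference −1.28 ± 0.405 (limma adjusted p = 0.169). In set 2 alone, where limma called 0.814% of all shared regions for Tet2, the difference was −1.87 with a limma adjusted p of 0.0318, and in set 1 alone −1.06 (adjusted p = 0.684). Around the start of the short Evi1 form, 533.0 kb downstream, 2 regions were looked up after their values were seen: Mecom_7 (chr3:30015151-30015591) had a mean percentile of 83.0 and Mecom_6 (chr3:30012687-30013728), over a UTR, of 61.4, both in all 16 libraries. The intronic Mecom_79 (chr3:30514160-30515724) ranked at 91.7 ± 1.63 (n = 16) and led the introns in 16 of 16 libraries. Mecom_41 (chr3:30330038-30330849), 218.0 kb into the gene, ranked at 64.5 ± 13.3, and Mecom_72 (chr3:30476960-30477372) at 62.3 ± 25.7 (n = 16, with WT replicate 2, which had no peak, counted as 0). For Mecom_72 the mean was 42.2 ± 22.0 in set 1 and 82.4 ± 3.47 in set 2 (SD, n = 8 each).

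Prdm16 (chr4:154316125-154636873, minus strand) had the most regions, 152, of which 90 (59.2%) were in a single library and 11 in all 16. The leading promoter region by rank, Prdm16_98 (chr4:154530997-154531920), lies within 3 kb of the start of a noncoding transcript, 105.0 kb into the gene, at 83.8 ± 3.94 (n = 16). The region at the first coding start, Prdm16_135 (chr4:154635000-154637259), looked up after its values were seen, had a mean of 81.5. The intronic Prdm16_102 (chr4:154541306-154542950) was at 55.8, 83.4, 87.5 and 87.1 in WT, 88.5, 83.7, 85.8 and 91.1 in P300KO, 74.9, 82.4, 88.2 and 90.1 in TET2KO, and 82.7, 80.9, 88.5 and 87.4 in P300KO_TET2KO. WT replicate 1 was far below the rest, and the other libraries overlapped. Prdm16_96 (chr4:154518800-154520277) and Prdm16_90 (chr4:154496828-154497738) ranked at 77.3 ± 3.87 and 76.9 ± 5.53 in 16 libraries. The 3 named Prdm16 introns lie between 94.7 and 140.0 kb from the first start.

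Hlf (chr11:90336536-90390895, minus strand), the shortest gene with the densest window, had 50 regions and 8 in all 16 libraries. The promoter region Hlf_44 (chr11:90390554-90391193, at an annotated start and over a UTR) ranked at 93.6 ± 1.79 (n = 16), between 90.6 and 96.0. An intergenic site 27.1 kb upstream, Hlf_48 (chr11:90417716-90418358), was the strongest region of the window in 13 of 16 libraries, with a mean of 94.6. None of the 21 intronic Hlf regions had a peak in all 16 libraries, unlike the introns of the other 5 genes, which had between 1 and 6 such regions each. The leading intronic sites were Hlf_27 (chr11:90363300-90364304) at 57.7 ± 20.3, Hlf_21 (chr11:90355255-90356745) at 36.2 ± 17.0 and Hlf_28 (chr11:90364756-90365674) at 32.5 ± 27.3 (n = 16 each, absent peaks counted as 0). Hlf_28 had a mean of 7.71 ± 12.4 in set 1 and 57.4 ± 6.22 in set 2 (SD, n = 8 each).

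Hmga2 (chr10:120361275-120476469, minus strand) had 46 regions and 9 in all 16 libraries. Its promoter region, Hmga2_40 (chr10:120474853-120477810, over an annotated start and a UTR), had the largest fall among the 52 shared regions without p300. It ranked at 86.2, 78.1, 77.2 and 77.4 in WT and at 73.0, 74.3, 68.4 and 62.0 in P300KO, without overlap. It ranked at 71.9, 81.4, 76.6 and 78.2 in TET2KO and at 74.5, 77.4, 69.4 and 66.7 in P300KO_TET2KO, with overlap in set 1 and none in set 2. The p300 difference was −7.67 ± 2.24 points (SE, limma adjusted p = 0.136), and that of P300KO against WT −10.3 ± 3.17 (limma adjusted p = 0.208). In set 2 alone, with the same 6.57% of shared regions called, the p300 difference was −10.7 points with a limma adjusted p of 0.0106, and in set 1 alone −4.6 (adjusted p = 0.803). For Tet2 the difference was −0.0598 points (limma adjusted p = 0.996). Inside the gene, Hmga2_10 (chr10:120377148-120378134) ranked at 77.5 ± 3.74, Hmga2_26 (chr10:120421880-120423337) at 73.4 ± 8.41 and Hmga2_11 (chr10:120384589-120385865) at 50.6 ± 9.96 (n = 16 each). The mean of Hmga2_10 was above that of the promoter in set 2 (80.1 against 72.0) and below it in set 1 (74.9 against 77.1). Another region, Hmga2_35, which lies inside Hmga2 within 3 kb of the start of Mir763, differed the other way, by 11.9 ± 4.14 points without p300 (SE, limma adjusted p = 0.216).

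**Figure D4:**
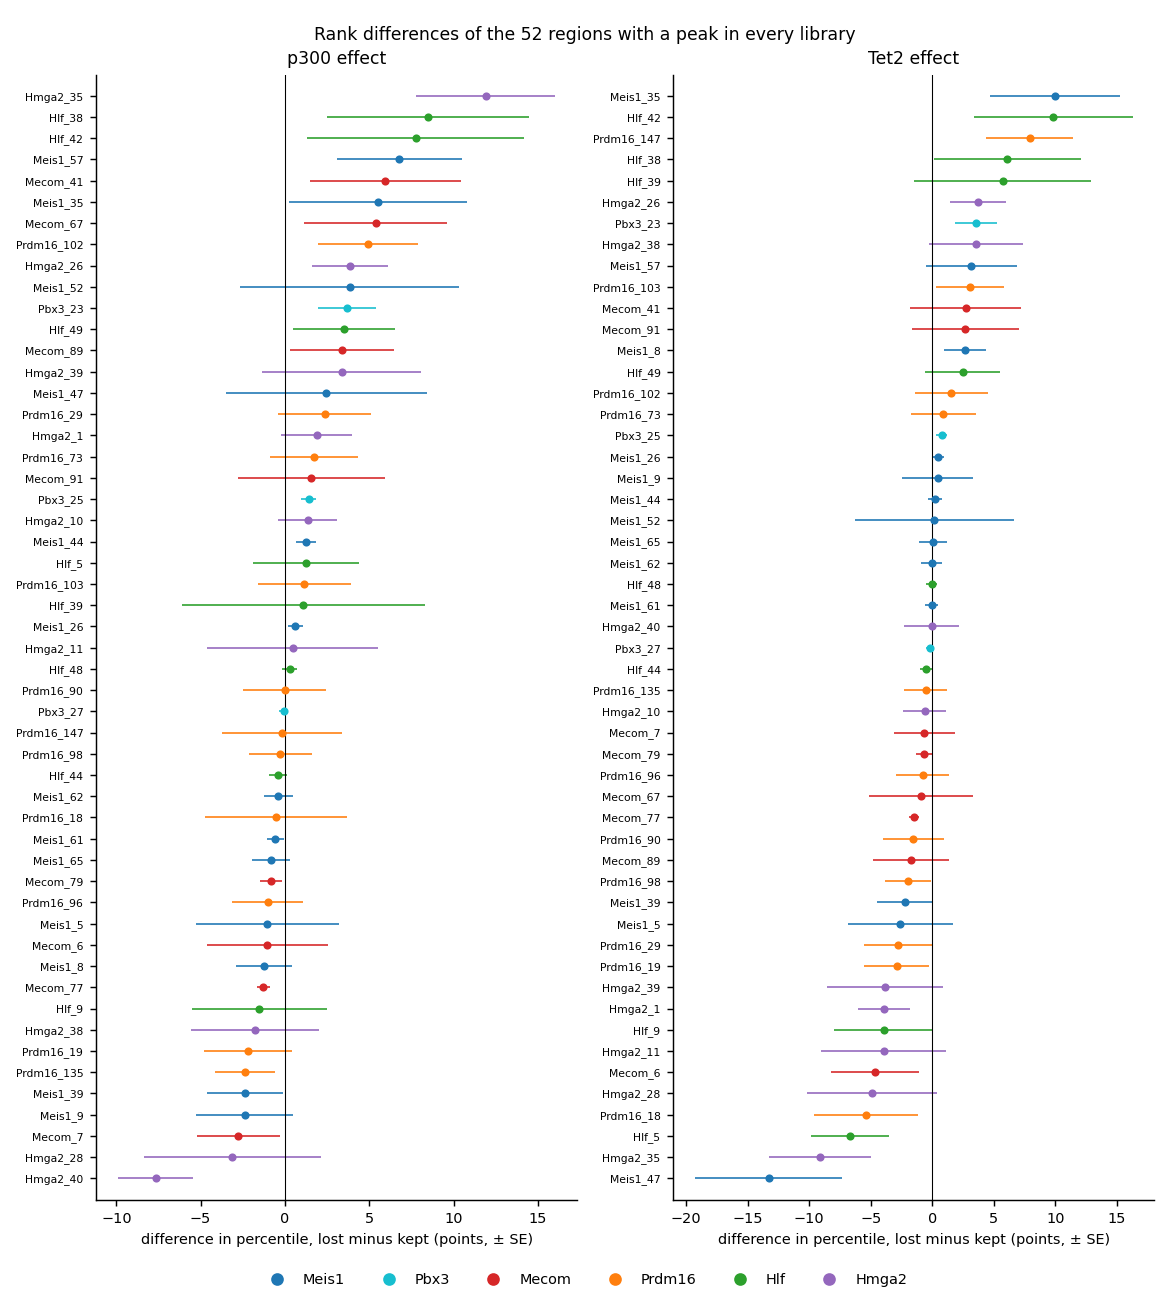
Difference in percentile between libraries that lost and kept p300 (left) or Tet2 (right) for the 52 regions with a peak in every library, in points with the SE from the fit over all 39310 shared regions, colored by gene. For p300 the ends are Hmga2_40 at −7.67 and Hmga2_35 at 11.9, and no difference passed an adjusted p of 0.05.

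Ranks were tested with limma on the 39310 regions in all 16 libraries, with genotype and deposit set as terms and adjustment over all of them. Among the 52 member regions, 0 passed in any of the 7 comparisons. Their smallest adjusted p was 0.136 (limma, p300). Member regions with an unadjusted limma p under 0.05 numbered 6 for p300 (11.5%, against 12.8% of all regions), 5 for Tet2 (9.62 against 10.7%) and 2 for the interaction (3.85 against 4.59%). Against WT they numbered 4 for P300KO (7.69 against 13.2%) and 3 for TET2KO (5.77 against 8.75%). For P300KO_TET2KO they numbered 4 against TET2KO (7.69 against 5.57%) and 1 against P300KO (1.92 against 7.04%). Of all 39310 regions, limma called 260 for p300 (0.661%; 43 higher and 217 lower), 97 for Tet2 (0.247%; 18 higher and 79 lower) and 0 for the interaction (0.0%). It called 27 for P300KO_TET2KO against TET2KO (0.0687%), 4 for P300KO against WT (0.0102%), 0 for TET2KO against WT (0.0%) and 41 for P300KO_TET2KO against P300KO (0.104%). The median p300 difference was 0.537 points over the members and 0.0194 over all shared regions, and the median Tet2 difference −0.135 and 0.114. On simulated ranks for the p300 comparison over 39310 regions, the same fit recovered 2 of 50 regions shifted by 10 points. It recovered 27 of 50 shifted by 20 points. The shifts were planted at regions of middle rank, each with its own spread. These counts therefore do not show how often a difference at Hmga2_40 would be called.

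Presence in 4 of 4 against 0 of 4 libraries was counted without a test. Of 434 member regions, 1 was lost in P300KO_TET2KO against TET2KO, where 38 regions genome-wide (0.0128%) were lost and 177 (0.0598%) gained. No member region was gained in that contrast, and none was gained or lost in the other 3. There, 39 regions (0.0132%) were gained and 31 (0.0105%) lost in P300KO against WT, 42 (0.0142%) gained and 21 (0.00709%) lost in TET2KO against WT, and 193 (0.0652%) gained and 91 (0.0307%) lost in P300KO_TET2KO against P300KO. The lost region, Hlf_18 (chr11:90347634-90348487), lies in an intron 42.8 kb from the first Hlf start. It was at 1.3, 16.7, 29.8 and 25.7 in TET2KO and without a peak in P300KO_TET2KO replicates 1 to 4. WT had a peak in 3 libraries (6.38, 21.6 and 27.8 in replicates 2 to 4) and P300KO in 1 (28.1 in replicate 3). It was thus a weak site in every library that had it, with a fold enrichment between 2.0 and 3.8, and the loss was not counted once a −log10 q of 2 was required. With 3 of 4 against at most 1 of 4 libraries, 7 member regions (1.61%) were gained and 1 lost in P300KO_TET2KO against TET2KO, where 1.19 and 0.522% of all regions were. The 7 gained sites, named after their values were seen, were Meis1_4, Meis1_30, Mecom_4, Mecom_13, Mecom_26, Mecom_76 and Mecom_83, each with a mean percentile between 2.17 and 10.1.

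Related genes were taken from 4 lists, which held 8 genes (TALE homeodomain genes and Hoxa9), 9 genes (PRDM genes and Ctbp corepressors), 3 genes (PAR bZIP genes and Nfil3) and 6 genes (HMGA genes and the Lin28b axis). Of these 26 genes, 25 had a promoter region in all 16 libraries, with a mean percentile of 50.5 for Lin28b, which blocks let-7 maturation, and of 99.1 for Tef, a PAR bZIP relative of Hlf. In limma, 0 of the 25 fitted promoters passed for p300 (1 with an unadjusted p under 0.05). For Tet2, 1 passed and was lower, that of Igf2bp2, an RNA-binding protein gene that Hmga2 is known to activate, and 2 had an unadjusted p under 0.05. The Igf2bp2 promoter (chr16:22118811-22119912) was at 78.5, 79.7, 86.8 and 86.9 in WT and 79.1, 78.6, 84.8 and 83.9 in P300KO. It was at 70.9, 63.4, 75.9 and 74.6 in TET2KO and 60.6, 75.1, 65.4 and 76.4 in P300KO_TET2KO. All 8 libraries without Tet2 were below all 8 with Tet2, by 12.0 points (difference −12.0 ± 2.31, SE, limma adjusted p = 0.0306). Without each library in turn the difference stayed between −13.6 and −10.7 points, while the limma adjusted p ran from 0.0102 to 0.0784 and was over 0.05 in 13 of 16 cases. With the replicate block the difference was also −12.0 points, with a limma adjusted p of 0.0602. Over the 8 alternative settings, this block among them, the limma adjusted p ran from 0.00358 to 0.509. The result was weaker in 4 of them, and the difference was negative in all 8. In region counts 0 of the 26 genes passed for p300 or Tet2. An unadjusted exact permutation p under 0.05 was found for 2 and 1 of them, against 6.16 and 5.44% of all genes. The 1 for Tet2 was the Hoxa9 window, with 4.62 regions more without Tet2 (exact permutation p = 0.00309, adjusted p = 0.798). That window takes in 50 kb on either side, so the count is not of Hoxa9 alone.

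The strings in the 18 named intronic windows were set against 18562 windows of the same length on the summits of all shared regions outside promoters. Ets strings were in 7 of the 18 and in 22.9% of the background, Gata in 5 (16.6%), Meis in 5 (17.7%), Runx in 4 (30.2%) and Cebp or PAR bZIP in 3 (10.9%). Hox-Pbx and Ap1 strings were in 2 each (2.26 and 9.66%), and Tal1 (18.4%), Myb (13.9%) and Irf (7.85%) in 1 each. The 5 windows with a Gata string, Meis1_44, Meis1_26, Pbx3_23, Prdm16_102 and Hmga2_11, also held an Ets string. The share of background windows that held both strings was not counted, so this count has nothing to be set against. The GC content of the named windows ran from 37.3% at Mecom_41 to 74.1% at Mecom_79, and the background median was 51.2%. These are matches in the reference sequence and not binding sites.

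Among genes more than 1 Mb away, the count of regions over the 16 libraries, after subtracting the mean of each deposit set, was most like that of Meis1 at Cd302 (Pearson r = 0.92), that of Mecom at Rsrc2 (0.896) and that of Hlf at Gm12216 (0.894). For Prdm16 it was Zfp992 (0.874), for Pbx3 Olfr954 (0.874, with 1 other gene at the same value and a mean of 0.562 regions) and for Hmga2 Pitpnm3 (0.812). Each is the highest of 20774 to 20807 values and is given as a description.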

How the data were processed

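ATAC-seq peak lists of 16 libraries of sorted mouse HSPCs were used. Per the submitters' processing notes and the study's methods, the authors trimmed reads with cutadapt 1.9.1, aligned them to mm10 with Bowtie2 2.2.6, removed duplicates, shifted reads for Tn5 and called peaks for each library with MACS2 2.1.0. The deposited lists give per summit a fold enrichment, a ratio to local background, and the authors' −log10 p and −log10 q, all within 1 library. These values set ranks within a list and were not compared between lists as signal. Read depth is unknown, so no counting interval is given, and absence means that no peak was called.

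Summits of an interval were collapsed to 1 peak, peaks were merged over lists by at least 1 bp, and genes and starts came from GENCODE M21. A promoter lay within 3 kb of a start. For each gene the text names the promoter region and the 3 intronic regions with the highest mean percentile, every gained or lost region, and regions that passed an adjusted p of 0.05. Percentiles of regions in all 16 libraries were fitted with limma 3.58.1 (R 4.3.3, trend, genotype plus deposit set, Benjamini-Hochberg over 39310 regions). Region counts per gene were compared by two-sided exact permutation within deposit set and the other background and adjusted over 21938 genes. Libraries are pools of separate mice. The p-values cover the spread between these libraries. The contrasts share libraries. Where groups of libraries are said not to overlap, the share of all regions or genes that separate so was not counted.

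The numbers pair no mice. Same-numbered libraries deviated together from their genotype means (r between 0.135 and 0.565) but not after genotype and set means were subtracted (r between −0.125 and 0.0419), so the shared numbers carried the deposit set. The members, lists and strings were chosen with earlier results of these data known. Alternatives tried were a minimum −log10 q of 2, the strongest 50000 peaks, a 10 kb flank, at least 50% of a region covered, 3 of 4 against 1 of 4 libraries, other rank scales, regions in at least 8 libraries, a 1 kb promoter, each set alone, the replicate block and leaving out each library. On simulated counts for the p300 comparison over 21938 genes, the permutation test gave an unadjusted p under 0.05 for 28 of 50 genes shifted by 5 regions and for 3.42% of unchanged genes, and no adjusted call. The simulated counts were Poisson draws around the mean of each set. Their spread was not matched to that of the real counts, so these shares need not hold for the real counts. Scripts ran on Python 3.11.15 with scipy 1.17.1, numpy 2.4.6, pandas 2.3.3, matplotlib 3.10.9 and pysam 0.24.0. Other assays of the study were not used here, and some marker and related genes are not reported here.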

Additional observations from a re-analysis of the deposited data

Results flagged for a closer look

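In 7 of 124 groups of 4 libraries (6 region counts and 25 named regions, each in 4 genotypes), a single library stood apart from the other 3 by Dixon's 95% criterion, where chance gives about 1 in 20. Of these, 3 were in WT replicate 1, where the fewest peaks reached a −log10 q of 2 (45.0%). In it Pbx3_23 was at the 73.8 percentile (others 90.1 to 91.0), Prdm16_102 at 55.8 (others 83.4 to 87.5) and Hmga2_40 at 86.2 (others 77.2 to 78.1). Meis1_44 was at 90.8 in TET2KO replicate 2 (others 94.6 to 95.0), and Prdm16_96 at 73.2 in P300KO replicate 2 (others 78.5 to 78.9). Hmga2_11 was at 50.8 in TET2KO replicate 3 (others 45.9 to 46.7). Hlf_18 was at 28.1 in P300KO replicate 3, and the other 3 P300KO libraries had no peak there.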

How the results depend on the processing

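The Meis1 counts were higher without p300 under all 7 alternative settings and without each library (4.0 to 5.0 regions), and higher without Tet2 except among the strongest 50000 peaks (−0.875; 3.0 to 4.0 without each library). With the replicate block the Meis1 differences were 4.5 and 3.5 regions (exact permutation p = 0.00781 each, adjusted p = 0.936 and 0.981). The block changed no call of a member region. It left the Igf2bp2 difference at −12.0 points, with a limma adjusted p of 0.0602 in place of 0.0306. Locus counts had no call to change, and the smallest p that the block allows is larger. They therefore cannot show an effect of the block on calls. Without each library, p300 differences ran from 0.75 to 1.75 (Pbx3), 0.5 to 3.0 (Mecom), −8.0 to −5.5 (Prdm16), 0.875 to 2.12 (Hlf) and −3.0 to −1.25 (Hmga2) regions, and Tet2 differences from 0.5 to 1.5, −1.75 to 0.75, −1.25 to 1.25, 0.375 to 1.62 and −1.25 to 0.5. The Tet2 differences of Mecom and Hmga2 turned to 2.0 and 1.0 with a −log10 q of at least 2, that of Mecom to 1.12 with at least 50% of a region covered, and that of Hmga2 to 0.375 among the strongest 50000 peaks. The p300 difference of Hmga2 turned to 0.625 among the strongest 50000 peaks and 0.25 with at least 50% covered. No cause was tested.

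The loss at Hlf was absent (0) with a −log10 q of at least 2, among the strongest 50000 peaks and with at least 50% covered, where 2 regions were gained in P300KO_TET2KO against TET2KO. Those 2 were 0.461% of the members, against 0.128% of all regions. With 3 of 4 against 1 of 4 libraries, gained and lost regions numbered 7 and 1 there (1.61 and 0.23%, against 1.19 and 0.522% of all regions), 5 and 2 in P300KO against WT (1.15 and 0.461, against 0.747 and 0.589%), 4 and 1 in TET2KO against WT (0.922 and 0.23, against 0.642 and 0.558%), and 7 and 0 in P300KO_TET2KO against P300KO (1.61 and 0.0, against 1.11 and 0.58%). In the same order they numbered 8 and 1 (1.84 and 0.23, against 2.05 and 0.369%), 8 and 5 (1.84 and 1.15, against 1.48 and 0.601%), 9 and 5 (2.07 and 1.15, against 2.01 and 0.615%), and 6 and 1 (1.38 and 0.23, against 2.18 and 0.378%) in set 1 alone (2 of 2 against 0 of 2). In set 2 alone they numbered 5 and 10 (1.15 and 2.3, against 1.54 and 1.31%), 8 and 6 (1.84 and 1.38, against 1.37 and 1.27%), 10 and 2 (2.3 and 0.461, against 1.04 and 1.02%), and 6 and 3 (1.38 and 0.691, against 1.45 and 1.34%). Without each library, gains ran from 0 to 1, 0 to 2, 0 to 1 and 0 to 2 and losses from 1 to 1, 0 to 1, 0 to 1 and 0 to 0. By rank, member calls of 52 regions were 0 except as follows. In set 2 alone they were 3 for p300 (Hmga2_40, Pbx3_25 and Meis1_9, 5.77% against 6.57% of all regions), 1 for Tet2 (Mecom_77, 1.92 against 0.814%) and 1 for P300KO against WT (Pbx3_25, 1.92 against 1.52%). For p300, Pbx3_25 was the 1 call in the rank among shared regions (1.92 against 3.03%) and without WT replicate 1 (1.92 against 1.43%, with 0 to 1 calls over the libraries left out). The mean percentile of a named region depends on the scale. Ranked among shared regions alone, where many weaker peaks are left out, it moved by over 1 SD for 18 of 18 (Hmga2_40 to 33.8, Hmga2_10 to 39.2, Hmga2_26 to 32.7, Mecom_41 to 19.8 and Prdm16_96 to 38.8), and by fold enrichment for 8 of 24 (Meis1_61 to 76.1, Hmga2_40 to 61.5). A promoter of 1 kb left 20 of 40 own promoter regions. Set 1 and unknown depth limit what absence of a peak shows.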
